A study of Mus musculus with 11 samples.

Results

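DNA replication and S phase genes encode the proteins that open origins, copy both strands and package the new DNA. The 34 genes are a list of such proteins given by symbol, with no measured value in the rule, though the list was drawn up with earlier results of these arrays known. Of the 34, 33 had at least 1 probe set assigned to that gene alone and were measured among 18193 genes in all, each by its probe set of highest mean signal. Chaf1a was not analysed here.

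Gene expression was measured on Affymetrix mouse 430 2.0 arrays in colon of adult C57BL/6 mice, 1 array per sample. Imatinib is an inhibitor of the Abl, Kit and PDGF receptor tyrosine kinases, and the series concerns an EphB-Abl pathway in intestinal tumours. There were 3 control samples taken before imatinib, 4 samples taken 3 h after its injection and 4 taken 12 h after it, and all 11 shared the strain, tissue and age class. No vehicle-injected or time-matched control was analysed here, so effects of the drug, of the injection itself and of the time of day cannot be told apart. The labels do not say that each sample came from a separate mouse, so the p-values reflect how these samples vary, which may in part be technical. The samples were whole tissue, in which fewer replicating cells and less RNA per cell cannot be told apart.

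In a dividing cell, the MCM2-7 helicase is loaded onto origins in G1 by Cdc6 and Cdt1 and is switched on at the start of S phase. Primase and DNA polymerase alpha then lay down primers that polymerases delta and epsilon extend, held on the template by the PCNA clamp, while ribonucleotide reductase, thymidylate synthase and thymidine kinase supply the nucleotides. In the colon these genes are active mainly in dividing cells of the lower crypt, and many of them are classic targets of the E2F transcription factors.

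The promoters of the genes are shown first, because most of them share a stretch of letters that the choice of genes did not use. RefSeq promoter windows (GRCm38.p6, 250 bases before to 50 after each transcription start) were matched by symbol to 28 of the 34 genes, which had 33 windows. Both strands were searched for the 7-letter E2F forms TTCCCGC and TTCGCGC as well as TTGCCGC and TTGGCGC, counting overlapping matches. At least 1 form was present in 22 of the 33 windows, or 66.7%, against 9.57% of all 32851 windows. The 8-letter forms TTTCCCGC, TTTCGCGC, TTTGCCGC and TTTGGCGC, which hold the 7-letter ones, were in 11 windows, or 33.3%, against 2.26% of all windows. CCAAT, the core of the NF-Y element, was in 57.6% of the windows against 37.4% of all. TTTGAA, the core of the cell cycle homology region of G2 and mitosis promoters, was in 9.09% against 17.9% of all.

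Of a list of 32 genes of G2 and mitosis, 27 had windows, 28 in all. TTTGAA was in 71.4% of these mitosis windows and a 7-letter E2F form in 14.3%. CCAAT was in 78.6% of them, a higher share than in the replication windows above. A separate list of other replication and S phase genes, described below, had 62 windows. A 7-letter E2F form was in 51.6% of those and an 8-letter form in 30.6%. The E2F letters were thus not particular to the replication genes listed first. The shares were not tested against each other. A match is a description of the letters and does not show binding. The 170 bases before the start are printed below, 5′ to 3′ along the gene's strand, with the 7-letter E2F forms of either strand in capitals, for 6 genes with such letters there. They are Prim1 (chr10:128015045-128015214, plus strand), Rrm1 (chr7:102441525-102441694, plus strand), Pola1 (chrX:93632156-93632325, minus strand), Mcm6 (chr1:128359706-128359875, minus strand), Mcm5 (chr8:75109339-75109508, plus strand) and Cdc6 (chr11:98907981-98908150, plus strand). Prim1, Rrm1 and Pola1 are among the genes with the lowest p-values below, and Mcm5, Mcm6 and Cdc6 show the letters in licensing genes.
Prim1: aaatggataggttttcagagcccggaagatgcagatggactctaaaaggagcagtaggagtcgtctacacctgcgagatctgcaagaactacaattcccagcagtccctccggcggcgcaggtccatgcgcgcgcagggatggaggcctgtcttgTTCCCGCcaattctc
Rrm1: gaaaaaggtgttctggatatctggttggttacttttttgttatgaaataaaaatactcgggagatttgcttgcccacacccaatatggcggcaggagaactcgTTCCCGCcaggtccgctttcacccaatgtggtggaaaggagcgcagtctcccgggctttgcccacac
Pola1: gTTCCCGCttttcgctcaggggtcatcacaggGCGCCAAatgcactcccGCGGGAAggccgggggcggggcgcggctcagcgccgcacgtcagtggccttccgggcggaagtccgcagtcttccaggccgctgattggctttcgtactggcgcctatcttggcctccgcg
Mcm6: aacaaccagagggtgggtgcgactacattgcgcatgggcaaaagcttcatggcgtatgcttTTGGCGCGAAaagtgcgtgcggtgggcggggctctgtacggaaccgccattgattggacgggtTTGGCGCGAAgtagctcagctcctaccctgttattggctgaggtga
Mcm5: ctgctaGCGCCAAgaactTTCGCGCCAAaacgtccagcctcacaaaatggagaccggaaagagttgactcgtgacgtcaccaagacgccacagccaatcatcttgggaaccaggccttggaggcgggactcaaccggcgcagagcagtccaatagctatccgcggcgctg
Cdc6: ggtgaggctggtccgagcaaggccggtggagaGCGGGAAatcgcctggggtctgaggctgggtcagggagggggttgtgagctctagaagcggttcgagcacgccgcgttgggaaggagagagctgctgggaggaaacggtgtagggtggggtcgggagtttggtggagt

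The same stretch is printed for Mcm10 (chr2:5012792-5012961, minus strand), Tk1 (chr11:117826015-117826184, minus strand) and Slbp (chr5:33652575-33652744, minus strand), which also had low p-values and in which none of the 4 forms was found.
Mcm10: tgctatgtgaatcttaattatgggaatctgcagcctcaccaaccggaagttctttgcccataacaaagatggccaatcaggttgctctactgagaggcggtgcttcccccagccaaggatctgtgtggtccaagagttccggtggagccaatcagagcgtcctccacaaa
Tk1: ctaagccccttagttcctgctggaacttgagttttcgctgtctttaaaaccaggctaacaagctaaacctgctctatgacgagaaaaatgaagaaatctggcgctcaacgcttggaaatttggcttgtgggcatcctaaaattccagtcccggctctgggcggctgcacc
Slbp: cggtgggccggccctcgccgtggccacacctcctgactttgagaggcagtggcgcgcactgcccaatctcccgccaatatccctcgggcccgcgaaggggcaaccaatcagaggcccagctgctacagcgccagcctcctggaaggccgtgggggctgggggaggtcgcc

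Mcm6 held 2 copies of the overlapping pair TTGGCGC and TTCGCGC (the latter on the other strand), starting 109 and 46 bases before the start. Prim1 held a single TTCCCGC 15 bases before the start, next to a CCAAT 9 bases before it. The 18 measured genes with a 7-letter form had a median log2 change of −0.14 at 3 h and −0.28 at 12 h against control, and the 9 with a window but no form had −0.21 and −0.26. Between 12 h and 3 h the medians were −0.17 with the letters and −0.06 without. The differences were not tested.

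All values are array signals on a linear scale, and changes are differences of log2(signal + 16) with their standard errors. A gene counted as called when its Benjamini-Hochberg adjusted p over all 18193 genes was under 0.05 in limma. No replication gene of the 33 was called at either time. At 3 h 0 of 33 were called, against 463 of 18193 genes or 2.54% of all. At 12 h 0 were called, against 294 genes or 1.62%, and between 12 h and 3 h 0 were called, against 742 genes or 4.08%. The unadjusted limma p was under 0.05 for 4 of the 33 at 3 h (12.1%, background 15%), for 6 at 12 h (18.2%, background 15.8%) and for 4 between the times (12.1%, background 17.7%). These shares lay near the background of all genes.

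The estimates leaned to lower values without single genes passing the test. The log2 change was below 0 for 23 of 33 genes at 3 h and 28 of 33 at 12 h, while 54.1% and 51.4% of all genes were below 0. The median log2 change was −0.12 at 3 h and −0.26 at 12 h, beside −0.02 and −0.01 over all genes. Single estimates ran from −0.52 to 0.18 at 3 h and from −0.69 to 0.28 at 12 h. Without control replicate 3, the control array highest for most members, the 2 medians were 0.02 and −0.08. That array was picked for its high values, so leaving it out moves the estimates upward. With each of the 11 arrays left out in turn, the medians ran from −0.21 to 0.02 at 3 h and from −0.33 to −0.08 at 12 h. The size of the lean thus depended on which arrays were included. With the mean of all probe sets of a gene in place of the brightest, the 12 h median was −0.12, and without 12 h replicate 4 it was −0.18. By role, the median turned above 0 without control replicate 3 for licensing (0.08 at 3 h and 0.02 at 12 h). It did so too for histone supply and chromatin (0.02 and 0.03) and for clamp, loader and single-strand binding (0.12 and 0.03). It was 0.01 and −0.03 for helicase activation. The median stayed below 0 for nucleotide supply (−0.35 and −0.47), priming and polymerases (−0.24 and −0.25) and Okazaki fragment joining (−0.12 and −0.20). Of these, 3 of 4 nucleotide supply genes were then below 0 at both times, and 1 of 2 joining genes at 12 h. Without 12 h replicate 4 the 12 h median of the 2 joining genes was −0.04. Without control replicate 1 the licensing medians were −0.12 and −0.22.

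The 95% confidence intervals were read on the scale of log2(signal + 16), on which the same change of signal gives a smaller value for a dim gene than for a bright one. At 12 h the interval of 29 of the 33 genes lay between −1 and 1, and it reached −1 for 4 genes (Prim1, Pole, Rrm1 and Tk1). At 3 h it lay between them for 32 genes, with Tk1 as the exception. For dim genes such as Tyms, Cdc6 and Mcm10, an interval inside these bounds can still hold a 2-fold change of the signal itself.

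**Figure D1:**
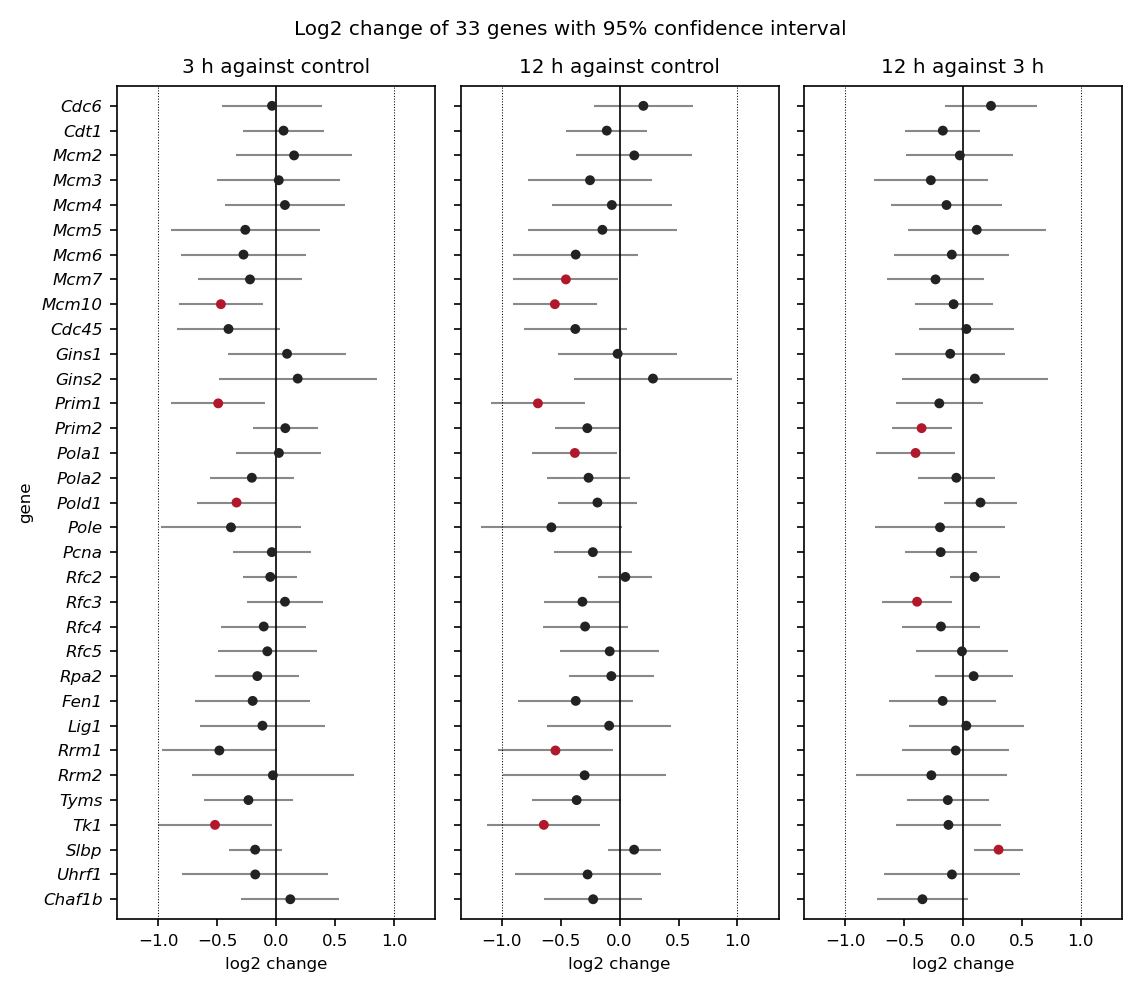
Log2 change of each of the 33 replication genes (points) with its 95% confidence interval (lines) in the 3 comparisons; dotted lines mark log2 changes of −1 and 1 and red points an unadjusted limma p under 0.05. At 12 h, 28 of 33 points lie left of 0, and the lowest is Prim1 at −0.69.

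The licensing genes, which load the helicase in G1, were spread around 0 at 3 h, with 4 of 8 below 0 and a median log2 change of −0.01. At 12 h 6 of 8 were below 0, with a median of −0.13. Mcm7, a helicase subunit, had the lowest of them at 12 h, −0.46 ± 0.20 (limma adjusted p = 0.304). Its signal was 396, 429 and 586 in the controls, 331 to 488 at 3 h and 443, 324, 350 and 246 at 12 h. The control and 12 h values overlapped through 12 h replicate 1. The helicase subunits Mcm2 and Mcm4 had 12 h estimates of 0.12 ± 0.23 and −0.07 ± 0.23, and the loading factors Cdt1 and Cdc6 had −0.11 ± 0.16 and 0.20 ± 0.19. A second bright Mcm4 probe set had the opposite sign at 12 h, 0.22 ± 0.27. Cdc6 was dim, between 9.5 and 28 on every array, close to or below the offset of 16. Mcm5 had a second bright probe set with an estimate of −0.62 ± 0.29 at 12 h against −0.15 ± 0.29 for the one used, so its size depended on the probe set.

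Among the genes that switch the helicase on, Mcm10, which helps the loaded helicase start to unwind, had one of the lowest p-values. Its signal was 55.0, 64.3 and 56.0 in the controls, 34.1, 34.7, 38.3 and 44.1 at 3 h, and 55.1, 34.7, 29.4 and 24.6 at 12 h. All 4 arrays at 3 h were below all 3 controls, whereas at 12 h replicate 1 reached the control range and the other 3 were below it. Mcm10 had a log2 change of −0.47 ± 0.16 at 3 h (limma adjusted p = 0.179) and −0.55 ± 0.16 at 12 h (adjusted p = 0.122). Without 12 h replicate 1 its 12 h change was −0.71 ± 0.12, with an adjusted p of 0.0172 in limma, so 1 array decided that call. Its other probe sets were dim, with mean signals of 11 and 7.65, and had estimates of −0.10 and 0.06 at 12 h.

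Cdc45, which joins the helicase at firing, had −0.41 ± 0.20 at 3 h and −0.38 ± 0.20 at 12 h, with overlapping arrays and a dimmer probe set at 0.35 ± 0.26 at 12 h. The GINS subunits Gins1 and Gins2 had 12 h estimates of −0.02 ± 0.23 and 0.28 ± 0.31. The latter spanned 19.8 to 93.1 among the 3 controls alone, and its second probe set had the opposite sign at 12 h, −0.27 ± 0.24.

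Priming and polymerase genes had a median log2 change of −0.27 at 3 h and −0.33 at 12 h, where all 6 were below 0. Prim1, the catalytic subunit of primase, had the lowest 12 h p-value of the 33 genes. Its signal was 176, 174 and 201 in the controls, 144, 102, 112 and 150 at 3 h, and 148, 114, 102 and 75.4 at 12 h. Every array after injection was below every control array. Prim1 had a log2 change of −0.49 ± 0.18 at 3 h (limma adjusted p = 0.209) and −0.69 ± 0.18 at 12 h (95% interval −1.09 to −0.29, adjusted p = 0.0868). Its second probe set had −0.63 ± 0.32 and −0.88 ± 0.32. With a trended, robust variance prior the 12 h adjusted p in limma was 0.0418, and without 12 h replicate 1 it was 0.037.

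Groups that did not overlap were found for 4 replication genes at 3 h, all lower: Mcm10, Prim1, Pold1 and Rrm1, or 12.1% beside 8.55% of all genes lower without overlap. At 12 h they were also 4, all lower: Prim1, Pole, Fen1 and Tk1, or 12.1% beside 6.96%.

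Pold1, the catalytic subunit of polymerase delta, had signals of 75.8, 74.7 and 78.1 in the controls, 61.3, 49.2, 48.6 and 71.1 at 3 h, and 78.7, 58.6, 78.9 and 47.9 at 12 h. The 3 h arrays were all below the controls, while 2 of the 12 h arrays were above them. The log2 change was −0.34 ± 0.15 at 3 h (limma adjusted p = 0.333) and −0.19 ± 0.15 at 12 h. Its second probe set had −0.08 ± 0.17 at 3 h. Pole, the catalytic subunit of polymerase epsilon, was dim and had −0.58 ± 0.27 at 12 h (adjusted p = 0.333 in limma), from 28.9, 34.7 and 33.6 in the controls to 28.3, 18.1, 16.8 and 6.1.

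Pola1, the catalytic subunit of polymerase alpha, had lower signals at 12 h than at 3 h. Its signal was 52.4, 75.9 and 84.7 in the controls, 84.5, 66.8, 57.4 and 78.7 at 3 h, and 56.4, 56.8, 52.1 and 36.8 at 12 h. All 12 h arrays were below all 3 h arrays but overlapped control replicate 1. The log2 change between 12 h and 3 h was −0.40 ± 0.15 (limma adjusted p = 0.187), and against control it was 0.02 ± 0.17 at 3 h and −0.38 ± 0.17 at 12 h (adjusted p = 0.29).

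Prim2, the other primase subunit, had the same order of groups. Its signal was 42.1, 59.4 and 55.8 in the controls, 64.6, 49.5, 49.7 and 60.3 at 3 h, and 42.6, 45.7, 33.9 and 39.4 at 12 h. The 12 h arrays were again all below the 3 h arrays, with a log2 change of −0.35 ± 0.12 between them (limma adjusted p = 0.125). A second Prim2 probe set, with a mean signal of 39.2, had a smaller estimate of −0.11 ± 0.22. Lower groups without overlap between 12 h and 3 h were found for these 2 genes alone among the 33, beside 5.26% of all genes. Pola2, the accessory subunit of polymerase alpha, had −0.06 ± 0.15 in the same comparison.

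**Figure D2:**
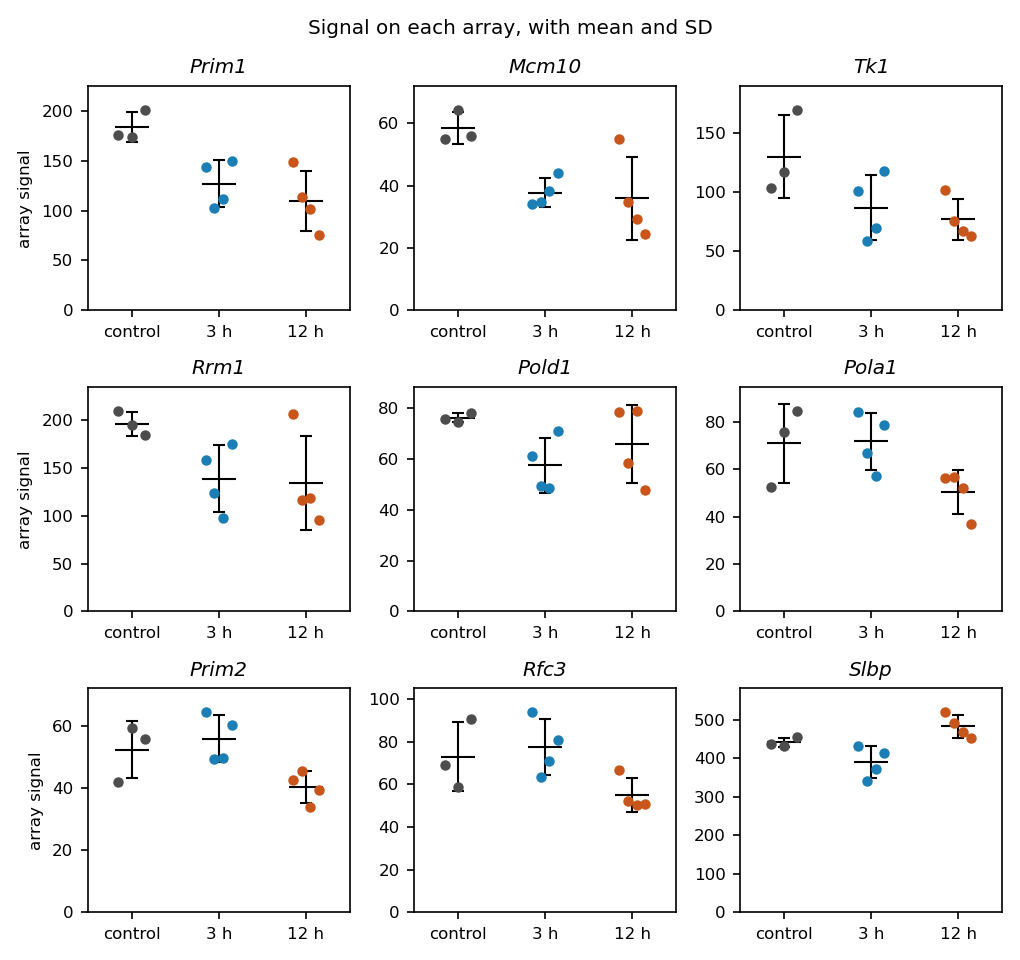
Array signal (linear, from 0) of the 9 replication genes that were among the 4 with the smallest limma p-values in at least 1 comparison. Each point is 1 array, shown with the group mean and SD (controls n = 3, 3 h n = 4, 12 h n = 4). Prim1 lies below its controls on all 8 arrays after injection, and Slbp is higher on all 4 arrays at 12 h (452 to 520) than on the 4 at 3 h (340 to 433).

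Clamp, loader and single-strand binding genes had a median log2 change of −0.06 at 3 h and −0.16 at 12 h. Without control replicate 3 these were 0.12 and 0.03, and without control replicate 1 they were −0.16 and −0.25. Pcna, the sliding clamp itself, was bright, with signals of 1252, 1069 and 1677 in the controls, 1132 to 1440 at 3 h and 1001 to 1255 at 12 h. Its groups overlapped at both times, with log2 changes of −0.04 ± 0.15 and −0.23 ± 0.15. Rfc2, a subunit of the clamp loader, had the narrowest interval of the group at 12 h, −0.18 to 0.28.

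Rfc3, another loader subunit, had signals of 69.2, 58.9 and 90.6 in the controls, 93.8, 63.6, 70.9 and 80.7 at 3 h, and 66.8, 52.2, 50.3 and 50.6 at 12 h. At 12 h, 3 of 4 arrays were below every other array, and replicate 1 was within the range of both other groups. The log2 change between 12 h and 3 h was −0.39 ± 0.14 (limma adjusted p = 0.148), and its second bright probe set had −0.39 ± 0.18. The single-strand binding subunit Rpa2 had −0.16 ± 0.16 at 3 h and −0.07 ± 0.16 at 12 h.

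The pair that finishes Okazaki fragments had log2 changes below 0 at both times, and neither was called. Fen1, the flap nuclease, had signals of 242, 215 and 211 in the controls and 199, 197, 189 and 106 at 12 h. These groups did not overlap, and replicate 4 was far below the other 3, with a log2 change of −0.37 ± 0.22 (limma adjusted p = 0.475). A second bright Fen1 probe set had a smaller estimate at 12 h, −0.12 ± 0.24. Lig1, the ligase, had −0.09 ± 0.24.

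Nucleotide supply genes had the lowest medians of any role, −0.36 at 3 h and −0.45 at 12 h, and all 4 were below 0 at both times. Tk1, the thymidine kinase of the salvage route, had signals of 103, 117 and 169 in the controls, 101, 58.5, 69.7 and 118 at 3 h, and 102, 75.8, 67.0 and 62.9 at 12 h. The 12 h arrays were all below the controls, replicate 1 only just, and the 3 h arrays overlapped them. Tk1 had a log2 change of −0.52 ± 0.22 at 3 h (limma adjusted p = 0.284) and −0.64 ± 0.22 at 12 h (adjusted p = 0.176).

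Rrm1, the large subunit of ribonucleotide reductase, had signals of 210, 195 and 184 in the controls, 159, 124, 97.3 and 175 at 3 h, and 207, 117, 119 and 95.3 at 12 h. All 3 h arrays were below the controls, and at 12 h replicate 1 alone was within the control range. The log2 change was −0.48 ± 0.22 at 3 h (limma adjusted p = 0.342) and −0.54 ± 0.22 at 12 h (adjusted p = 0.263), and the second bright probe set had −0.33 ± 0.23 and −0.55 ± 0.23. Rrm2, the small subunit, had −0.03 ± 0.32 and −0.30 ± 0.32, and its controls alone spanned 99.3 to 205. Tyms, the thymidylate synthase, was near the offset on every array, 3.8 to 19, so its estimates of −0.24 ± 0.17 and −0.36 ± 0.17 say little.

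Histone supply and chromatin genes held the one gene of the 33 whose 12 h arrays were all above its 3 h arrays. Slbp, the protein that binds the stem-loop of replication-dependent histone mRNAs, had signals of 438, 433 and 455 in the controls, 433, 340, 372 and 414 at 3 h, and 520, 493, 467 and 452 at 12 h. Both groups overlapped the controls. The log2 change between 12 h and 3 h was 0.30 ± 0.10 (limma adjusted p = 0.106), and with an offset of 64 it was 0.27 ± 0.07 with an adjusted p of 0.0396. Among all genes, 6.28% were higher at 12 h than at 3 h without overlap. Uhrf1, which guides maintenance methylation at the fork, and Chaf1b, a subunit of chromatin assembly factor, had 12 h estimates of −0.27 ± 0.28 and −0.22 ± 0.19 against control. A second, dimmer Uhrf1 probe set had −0.52 ± 0.16 at 12 h, so its size depended on the probe set.

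Between 12 h and 3 h, 24 of 33 genes were below 0, where 47.2% of all genes were, with a median log2 change of −0.11 and a range of −0.40 to 0.30. Both times were compared with the same 3 controls, so their changes against control are not independent of each other. The 12 h against 3 h median was 0.02 without 12 h replicate 4 and −0.24 without 12 h replicate 1. It was −0.20 and −0.03 without 3 h replicates 3 and 4.

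Arrays of one group differed among themselves in the same way for many replication genes at once. Control replicate 3 was the highest control for 26 of 33 genes, whereas it was highest for 31.5% of all genes. At 12 h, replicate 1 was highest for 26 of 33 (25.2% of all genes) and replicate 4 lowest for 24 of 33 (27.6%). At 3 h, replicates 1 and 4 were highest for 13 and 18 genes, and replicates 2 and 3 lowest for 13 and 16. The mean log2 level of the 33 genes was 6.82, 6.89 and 7.22 in the controls, 6.98, 6.68, 6.63 and 7.06 at 3 h, and 7.08, 6.74, 6.70 and 6.45 at 12 h. Group means were 6.98 ± 0.21 (SD, n = 3), 6.84 ± 0.21 (n = 4) and 6.74 ± 0.26 (n = 4), so the groups differed by about the spread between arrays or less.

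**Figure D3:**
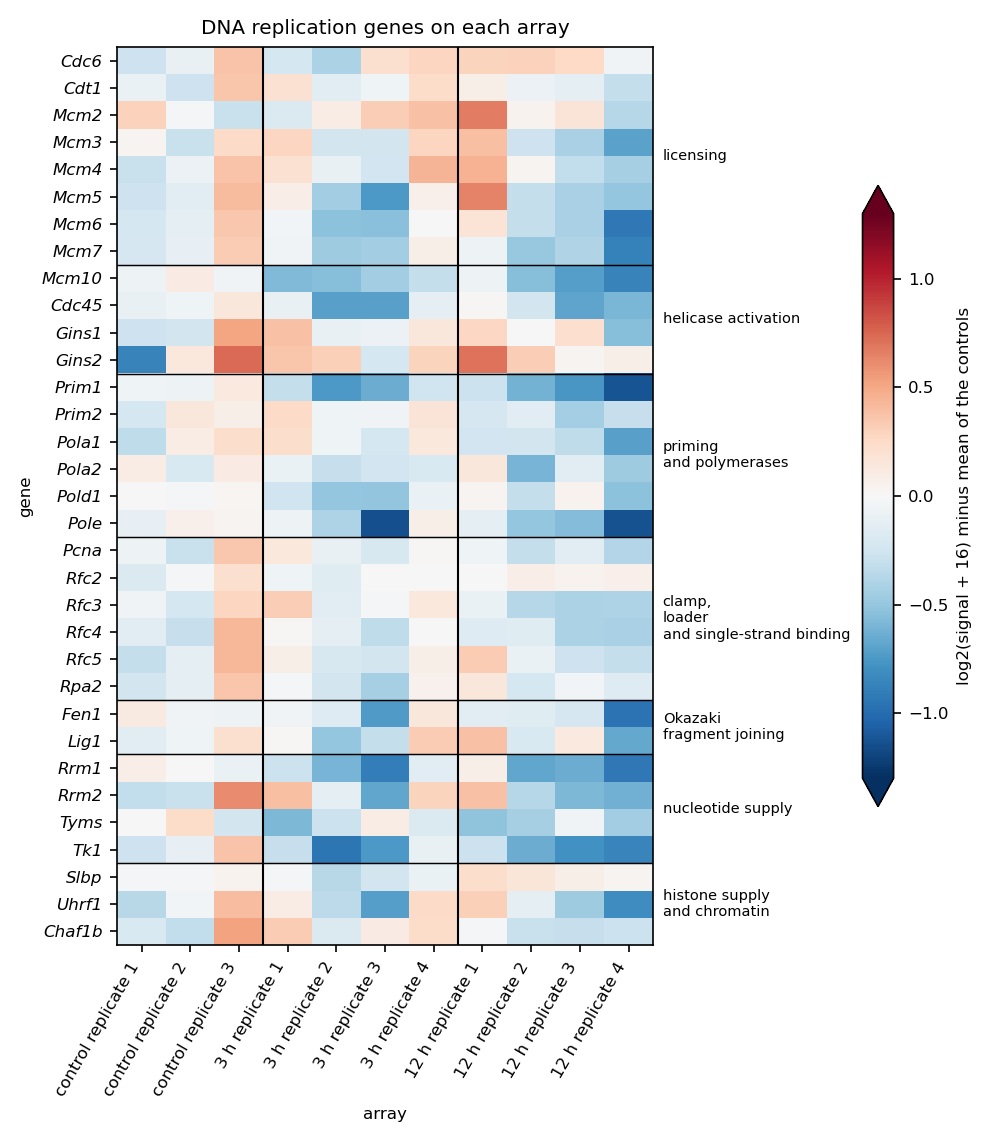
Log2(signal + 16) of the 33 replication genes on each of the 11 arrays, minus the mean of the controls for that gene (blue lower, red higher), in order of role. Control replicate 3 and 12 h replicate 1 are mostly red, and 12 h replicate 4, lowest of its group for 24 of 33 genes, mostly blue.

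Levels of other tissue markers on the arrays are given beside these results, and their part in them was not tested. The mean log2 level of 14 colon epithelium markers was 11.73 to 12.05 on all 11 arrays, and that of 11 crypt stem cell markers 6.69 to 7.09. A set of 10 smooth muscle markers had 10.50 to 10.74 in the controls, 10.43 to 10.91 at 3 h and 9.83 to 10.64 at 12 h. A set of 12 fat markers had 7.0 to 7.10, 7.54 to 7.89 and 7.02 to 7.82, and 10 posterior Hox genes, which mark position along the gut, had 6.45 to 6.69, 5.98 to 6.21 and 6.5 to 6.58. B cell and germinal centre markers, another source of dividing cells, had 5.34 to 5.54, 5.26 to 5.46 and 5.12 to 5.53, and T and NK cell markers had 4.88 to 4.99, 4.98 to 5.46 and 4.90 to 5.37, both near 5, which a signal of 16 would give. Pancreatic acinar transcripts ranged from 6.02 to 12.83 and were above 9 on 5 arrays: control replicate 1, 3 h replicate 3 and 12 h replicates 1, 3 and 4. Without those 5 arrays the median log2 change of the replication genes was −0.16 at 3 h and −0.31 at 12 h, and 0 were called at either time. The spiked poly-A control RNAs averaged 7.18 to 7.36 in the controls, 7.30 to 7.47 at 3 h and 7.62 to 8.49 at 12 h.

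Other genes of replication and S phase, 65 measured of a list of 68, gave 1 call at 12 h and 1 between the times. These calls lay near or below the share over all genes. At 3 h none was called in limma, beside 2.54% of all genes, and 11 had an unadjusted p under 0.05 (16.9%, background 15%). At 12 h 1 of the 65 was called, higher, beside 1.62% of all genes, and 17 had an unadjusted limma p under 0.05 (26.2%, background 15.8%). Between the times 1 of the 65 was called, lower, beside 4.08% of all genes. There 10 had an unadjusted limma p under 0.05 (15.4%, background 17.7%). Their median log2 change was −0.12 at 3 h, −0.12 at 12 h and 0.02 between the times.

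Cdc25a, the phosphatase that activates Cdk2 at the entry to S phase, was the gene that rose at 12 h. Its signal was 178, 214 and 246 in the controls, 279, 252, 269 and 241 at 3 h, and 332, 343, 319 and 288 at 12 h. All 12 h arrays were above all others, and its log2 change at 12 h was 0.56 ± 0.12 (limma adjusted p = 0.0351). The call held without control replicate 3 or 12 h replicate 4 and was lost when any other single array was left out (adjusted p = 0.0504 to 0.137).

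E2f2, an activator of the E2F family, fell from 3 h to 12 h. Its signal was 55.0, 77.0 and 121 in the controls, 116, 48.9, 65 and 57.9 at 3 h, and 35.4, 14.5, 22.9 and 34.3 at 12 h. All 12 h arrays were below all other arrays. The log2 change was −1.02 ± 0.26 against 3 h (limma adjusted p = 0.0472) and −1.21 ± 0.28 against control (adjusted p = 0.0514). The call against 3 h held without control replicate 1 or 3 and was lost when any other single array was left out (adjusted p = 0.0524 to 0.122). E2f1, the best known activator, had −0.02 ± 0.21 at 3 h and −0.24 ± 0.21 at 12 h.

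The cyclins that drive S phase did not share a direction. Ccne2 had 0.49 ± 0.15 at 3 h and 0.57 ± 0.15 at 12 h (limma adjusted p = 0.0959), with 35.6, 38.9 and 60.8 in the controls and 81.2, 74.8, 71.8 and 65.1 at 12 h. Ccne1 had 0.17 ± 0.12 and 0.15 ± 0.12, and Ccna2, the cyclin of S phase and G2, −0.41 ± 0.28 and −0.71 ± 0.28. Myc, which promotes entry into the cycle, rose at 3 h by a log2 change of 0.89 ± 0.17 (limma adjusted p = 0.0182). Its signal was 93.4, 99.5 and 104 in the controls, 202, 170, 169 and 261 at 3 h, and 114, 77.8, 84.4 and 65.8 at 12 h. It then fell, with a log2 change of −1.09 ± 0.16 between 12 h and 3 h (adjusted p = 0.00264). The 3 h call was lost without control replicate 1 or 2 or 3 h replicate 1 (adjusted p = 0.0859, 0.071 and 0.0501) and with an offset of 1 (0.99, adjusted p = 0.0527).

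Genes of G2 and mitosis were the comparison list on the same arrays, and some of them were called. In limma 2 of 31 fell at 3 h and 7 of 31 at 12 h, where 1.11% and 0.835% of all genes were called lower. None was called between the times, beside 4.08% of all genes. The unadjusted limma p was under 0.05 for 13 at 3 h (41.9%, background 15%) and 27 at 12 h (87.1%, background 15.8%). Between the times it was under 0.05 for 4 (12.9%, background 17.7%). The median log2 change of the 31 genes was −0.50 at 3 h and −0.68 at 12 h, and 30 and 31 of the 31 were below 0. With 1 array left out the counts of called genes ran from 0 to 3 at 3 h and from 0 to 12 at 12 h. At 12 h the count was 0 without control replicate 1 or 2 or 12 h replicate 3, and 1 without control replicate 3 or 12 h replicate 2. It was 3 without 3 h replicate 1, 3 without 12 h replicate 4, 4 without 3 h replicate 2 and 12 without 12 h replicate 1. At 3 h it was 0 without control replicate 1 or 2 or 3 h replicate 2 or 3, and 1 without control replicate 3 or 3 h replicate 1 or 4. Fewer genes of any kind were then called at 12 h: over all genes 41 higher and 30 lower without control replicate 1, and 31 and 32 without control replicate 2. The 12 h median of the 31 genes was −0.70 and −0.71 without these arrays, and −0.57 to −0.88 over all 11 arrays left out in turn. With the mean of all probe sets of a gene the counts were 0 and 3, and the medians −0.34 and −0.51. With an offset of 1 the counts were 0 and 0, and the medians −0.56 and −0.91. With a fit of only the 2 groups compared, the 12 h count was 0. Equal array medians turned the calls over all genes at 12 h from 142 higher and 152 lower to 164 and 115. At 12 h 18 of the 31 had all arrays below the controls, beside 6.96% of all genes, compared with 4 of the 33 replication genes. The difference between the lists was not tested.

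Bub1b, a spindle checkpoint kinase, and Hmmr, a spindle protein, fell at 3 h by 0.69 and 0.78 and at 12 h by 0.75 and 0.90 on the log2 scale (limma adjusted p = 0.0276 and 0.0364 at 3 h, 0.0276 and 0.0279 at 12 h). Mki67, the common marker of cycling cells, had signals of 483, 630 and 471 in the controls, 416, 317, 276 and 439 at 3 h, and 334, 237, 268 and 192 at 12 h. Its 3 h and 12 h arrays were all below the controls, and it fell at 12 h with a log2 change of −1.01 ± 0.20 (adjusted p = 0.0295 in limma). Anln, Cenpf and Nusap1, which act in cytokinesis, at the kinetochore and on the spindle, fell at 12 h with log2 changes of −0.98 ± 0.20, −0.90 ± 0.19 and −1.04 ± 0.23 (limma adjusted p = 0.0382, 0.0401 and 0.0448). With the mean of all probe sets, 0 of the 31 genes were called at 3 h, so the 3 h calls of Bub1b and Hmmr were lost, and 3 were called at 12 h. Cenpf then had −0.55 at 12 h (limma adjusted p = 0.145) and Nusap1 −0.47 (adjusted p = 0.258), and neither was called. The other gene that fell at 12 h was Cdk1, the kinase that starts mitosis, with −1.10 ± 0.24 (adjusted p = 0.0478). Top2a, the topoisomerase that untangles chromosomes, had −1.03 ± 0.34 (adjusted p = 0.165) and was not called.

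The order of arrays within the groups was similar for both lists. The mean log2 level of the 31 mitosis genes was 7.22, 7.43 and 7.41 in the controls, 7.04, 6.77, 6.58 and 7.26 at 3 h, and 7.11, 6.66, 6.54 and 6.33 at 12 h. At 12 h replicate 1 was highest for 28 of the 31 and replicate 4 lowest for 25, and at 3 h replicate 4 was highest for 26. Among the controls, replicate 3 was highest for 16 of the 31, against 26 of 33 for the replication genes.

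**Figure D4:**
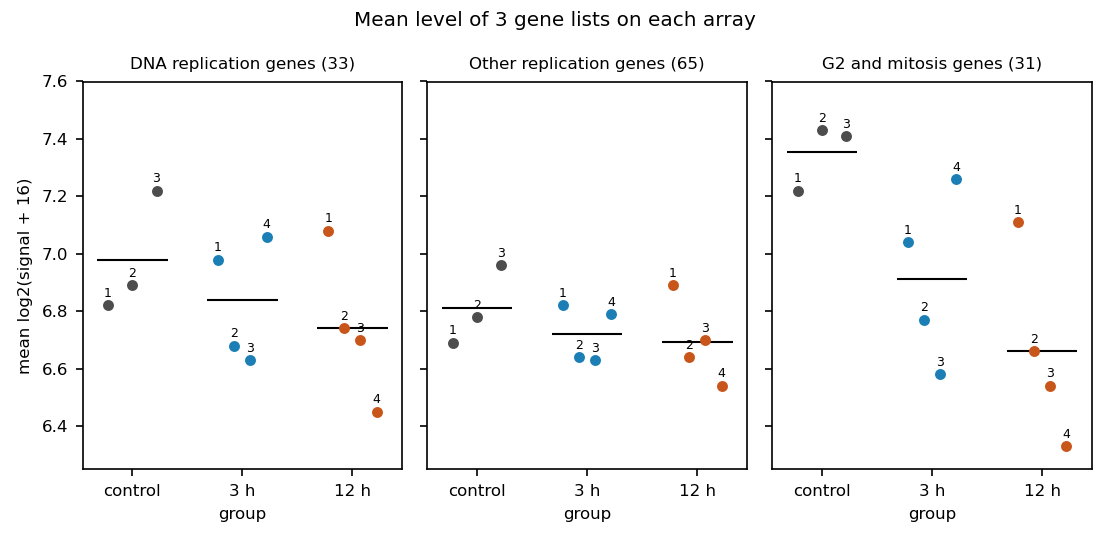
Mean log2(signal + 16) of 33 replication genes, 65 other replication genes and 31 G2 and mitosis genes on each array, 1 point per array numbered by replicate, with the group mean as a line. For the mitosis genes 7 of the 8 arrays after injection lie below every control, and for the replication genes the 3 groups overlap.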

How the data were processed

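The deposited values were array intensities per probe set on a linear scale; the mean trimmed by 2% at each end was 100 on every array. The software that made them is not given in the sources used here. No deposited value column was left unused. Probe sets with 1 gene symbol in the platform annotation were kept (34945 of 45101), and a gene was represented by its probe set of highest mean signal. Levels are log2(signal + 16). Median signals were 16.8 to 23.9 per array. Fits used limma 3.58.1 in R 4.3.3 (lmFit and eBayes, 11 arrays in 3 groups, 8 residual degrees of freedom, 2-sided) and were tested on simulated data. The simulated noise was independent between genes, whereas these arrays shifted many replication genes together. The simulation therefore does not show how often changes of these genes would be called. No array pair held identical values. The number of arrays limits the precision. The genes and lists were chosen with earlier results of these data known. Values on every array are printed for the replication genes with the 4 smallest p-values in each comparison. From the other lists, called genes and a few fixed names are given, some without their values on every array. Alternatives were other offsets, scalings, probe set rules, a level filter, array weights, variance priors, thresholds, array subsets and a replicate block. Promoter letters were searched in RefSeq windows (GRCm38.p6) with Python 3.11.15, and figures were drawn with matplotlib 3.10.9.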

Additional observations from a re-analysis of the deposited data

Results flagged for a closer look

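In 7 of 82 groups of 4 arrays screened, 1 array stood far from the other 3 by Dixon's test; chance gives this in about 1 in 20 groups. At 12 h replicate 1 was the high array for Mcm5 (276.7), Rfc3 (66.8) and Chaf1b (43.7). At 12 h replicate 4 was the low array for Cdc6 (17.0) and Fen1 (106.3). Tyms was high on 12 h replicate 3 (12.6, still below the offset), and Gins2 was low on 3 h replicate 3 (40). E2f2 differed between the 2 times after injection, with a log2 change of −1.02 for 12 h against 3 h in limma.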

How the results depend on the processing

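The count of called replication genes at 3 h was 0 in all 23 alternatives. At 12 h it was 1 (Prim1) with a trended, robust variance prior and 1 (Prim1) at an adjusted p under 0.1, and 0 to 2 when 1 array was left out (2 without 12 h replicate 1: Mcm10 and Prim1). Between 12 h and 3 h it was 1 (Slbp) with offset 64. The medians of the 33 genes ran from −0.21 to 0.02 at 3 h, −0.33 to −0.08 at 12 h and −0.24 to 0.02 between the times when 1 array was left out. The sign of a gene's change was kept in every alternative for 13, 21 and 15 of the 33.

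For the 65 other replication genes, the 3 h count was 1 (Top1) with offset 64 and 0 to 1 with 1 array left out (Chtf18 without control replicate 1, Ccne2 without control replicate 3). The 12 h count of 1 became 0 with offset 1, the mean of all probe sets, a fit of 2 groups and without the 5 arrays high in pancreatic transcripts (chosen after seeing the data). It was 2 with offset 64 and with the level filter, 3 with the trended, robust prior, 5 at an adjusted p under 0.1 and 0 to 3 with 1 array left out (3 without 12 h replicate 4, 2 without control replicate 3). The count of 1 between the times became 0 with offset 1, offset 64, equal array medians, the mean of all probe sets, a fit of 2 groups and without those 5 arrays, and 0 to 1 with 1 array left out.

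For pairing by replicate number, 3 of 10 same-number pairs of arrays correlated over 0.1, against 8 of 30 other pairs. The highest correlations were 0.309 and 0.308. With so few pairs, these values cannot exclude a pairing of the samples. The 2 and 7 calls among the 31 mitosis genes ranged from 0 to 4 and from 0 to 12 over the alternatives, with medians of −0.63 to −0.33 and −0.91 to −0.48. Without the 5 arrays high in pancreatic transcripts they were 0 and 0 with medians of −0.45 and −0.78, and both Myc calls were lost (0.93 and −1.25, adjusted p = 0.123 and 0.166); over all genes 5 higher and 3 lower calls were left at 12 h. With a replicate block they were 1 and 1, the Myc call at 3 h was lost (adjusted p = 0.0611), 0 of the 33 genes were called in each comparison, and the counts for the other replication genes were 0 at 12 h and 0 between the times.

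Dim genes limit the list: Tyms, Cdc6 and Pole lay near the offset, and 5 to 6 of 19 genes with several bright probe sets had probe sets of opposite sign in a comparison.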
